A study of Mus musculus with 12 samples.

Results

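Bone marrow hematopoietic stem and progenitor cells (HSPCs) of mice on a normal diet (ND) were compared 7 days after intracerebral hemorrhage (ICH) with the same sorted population of ND mice that had no hemorrhage. The comparison used 6 of the 12 RNA-seq libraries of the series, 3 labelled ND with no treatment and 3 labelled ND with ICH at day 7. Values were CPM, the reads of a gene scaled to the size of the library. Genes over 10 CPM in 3 or more of these 6 libraries were taken, which left 9696 of the 20792 listed genes; 8776 of them were above 10 CPM in all 6 libraries. In this main set, 48 genes were higher and 68 were lower after ICH at an adjusted p under 0.05. The genes that rose included granule protein and monocyte genes (Elane, Ctsg, Ms4a3, F13a1, Ly6c2), the chemokine receptor gene Ccr2 and the eosinophil granule genes Prg2 and Epx. The genes that fell included Nr4a1 and other immediate early genes, the heat shock gene Hsph1 with 5 further chaperone genes, and genes of the U1 small nuclear RNA.

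HSPCs are the bone marrow cells from which all blood lineages arise. The sorted cells lacked lineage surface markers and CD127 and carried c-kit and Sca-1, a gate that holds stem cells together with multipotent progenitors already biased toward one lineage. Progenitors that turn to the neutrophil and monocyte lineages begin to transcribe the proteases and enzymes of primary granules before they lose stem cell markers. Immediate early genes are transcribed within minutes of a stimulus, without new protein synthesis, and heat shock genes encode chaperones that fold or refold proteins. The study induced ICH by injecting autologous blood into the brain, kept these mice on the normal diet throughout, and used male mice of no stated transgene or deletion.

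The ND libraries were each made from pooled animals; for the ND ICH libraries no pooling was found in the sources used here. There was no sham-operated group, so hemorrhage, surgery and anything else in which the 2 sets of libraries differed in handling or sequencing cannot be told apart. Nothing in the labels says that the 3 libraries of a group came from separate sorts, so the p-values measure the spread between these libraries. In bulk libraries, fewer cells of a type and less RNA per cell cannot be told apart.

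Depth was similar, between 12367859 and 15058511 recovered reads in the 6 libraries. The sort genes were present: Kit was at 442 ± 5.74 CPM (SD, n = 3) without ICH and 411 ± 50.1 after it, with adjusted p = 0.541 by limma. Cd34 was at 350 ± 4.15 and 314 ± 4.24 CPM (adjusted p = 0.243), and Flt3 at 278 ± 10.4 and 273 ± 34.5 CPM (adjusted p = 0.873). Ly6a, which encodes Sca-1, was below the main set, at 6.72, 6.25 and 5.01 CPM in the ND libraries and 3.68, 4.18 and 6.53 CPM in the ND ICH libraries. Of the genes of depleted lineages, Klrb1c, a natural killer cell gene, was at 0.560, 0.526 and 0.381 CPM in the ND libraries and 1.64, 2.69 and 1.84 CPM in the ND ICH libraries. Itgam, which encodes the myeloid marker CD11b, was at 24.1, 23.1 and 25.3 against 34.8, 40.01 and 26.4 CPM. Both were higher in every ND ICH library than in any ND library, Klrb1c being below the main set and Itgam not passing the test. One difference between the sets covered the whole table: 1393 to 1570 of the 20792 listed genes had no read in an ND library, against 2 to 9 in an ND ICH library.

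Among the 9696 genes, 0.495% were called higher and 0.701% were called lower, and 38 of the genes that rose and 24 of those that fell did so at least 2-fold. The median log2 fold change (ND ICH minus ND, on log2(CPM + 0.5)) of all tested genes was -0.08, and 3197 means were higher against 6499 lower. Without regard to the test, the 3 libraries of each group did not overlap for 433 genes that were higher (4.47%) and 2369 that were lower (24.4%). The balance of the calls moved with the scaling. The deposited scaling gave 41.4% of calls as higher, and 4 other scalings gave between 48.0% and 67.1%, with 48 to 51 genes higher and 25 to 52 lower. All 48 genes that rose kept their call under the 4 scalings, whereas 25 of the 68 that fell did, and of these 25 only 8 were protein-coding genes (Nr4a1, Hsph1, Banp, Rfx1, Epb41l3, Neurl4, Wdr90 and Cchcr1; the last 5 are named for this property, after their values were seen). For the main set, 26 of the genes that rose had no ND library above 10 CPM and so entered only through the ND ICH libraries. Among them were Prg2, Epx, Ttn, Neb, Ms4a3, Hp, Gda, Mtus1, Rps6ka2, Sele, mt-Td and the satellite-like genes other than Gm10800. Of the genes that fell, 5 entered only through the ND libraries, Nr4a1 among them. The filter fixed the direction in which such genes could differ, so their calls and lack of overlap are no independent support.

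**Figure D1:**
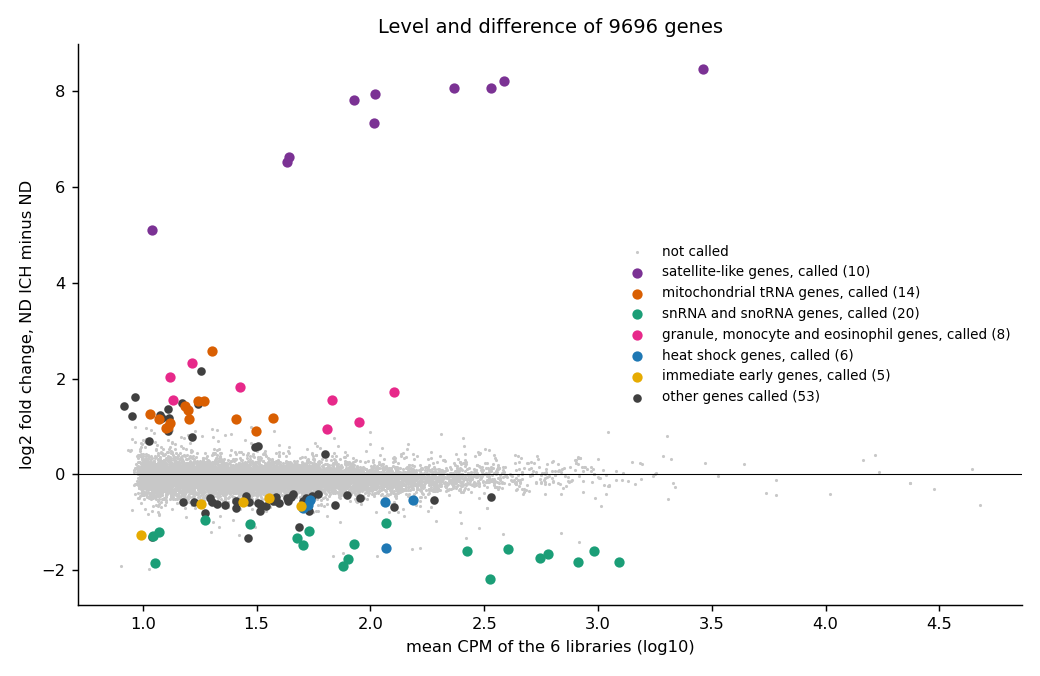
Mean CPM of the 6 libraries (x axis, log10) against the log2 fold change, ND ICH minus ND (y axis), for the 9696 genes; each point is a gene, grey where not called and coloured by group where its adjusted p was under 0.05. The satellite-like genes stand apart at the top, and most called genes that fell lie within 2-fold, 24 of 68 being past it.

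Most genes that rose are described in 4 groups, and the first was granulocyte and monocyte priming. Of 33 tested genes of this list, 6 rose and 0 fell, the median log2 fold change was 0.58, and 30 of the 33 means were higher. The groups did not overlap for 13 of the 33 genes (39.4%, all higher), against 4.47% of all genes. Elane (chr10:79886247-79888215, mm10), which encodes neutrophil elastase, was at 95, 47.5 and 38.8 CPM in the ND libraries and at 253, 194 and 132 CPM in the ND ICH libraries. Every ND ICH library was above every ND library, and the log2 fold change was 1.73 ± 0.32 (SE; adjusted p = 0.0452 by limma). Ctsg, encoding the granule protease cathepsin G, went from 83.1, 49.2 and 42.6 to 129, 122 and 109 CPM (log2 fold change 1.10 ± 0.21, adjusted p = 0.0498). Ms4a3, a marker of granulocyte-monocyte progenitors, went from 9.52, 5.92 and 5.08 to 22.8, 20.6 and 17.7 CPM (1.55 ± 0.21, adjusted p = 0.0151). No ND library was above 10 CPM for Ms4a3, so its call and lack of overlap are no independent support.

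The monocyte genes of the list and Alas1 followed. F13a1, which encodes the A subunit of coagulation factor XIII, was at 54, 32.4 and 21.1 CPM without ICH and at 103, 115 and 81.6 CPM after it (log2 fold change 1.56 ± 0.28, adjusted p = 0.0433). Ly6c2, which encodes the Ly6C antigen of inflammatory monocytes, was at 16.9, 10.3 and 7.23 against 49.6, 52.6 and 23.9 CPM (1.83 ± 0.34, adjusted p = 0.0452). Alas1, encoding the first enzyme of heme synthesis outside the erythroid lineage, was at 57.1, 37.6 and 37.6 against 94.9, 84.7 and 73.3 CPM (0.95 ± 0.17, adjusted p = 0.0385). Alas1 also stood in the iron and heme list, of which 1 of 34 tested genes rose and 0 fell. In all 3 genes the lowest ND ICH library was above the highest ND library, and ND 1 was the highest of the ND libraries. Ccr2, the receptor that takes monocytes out of the marrow, stood in the homing list, of which 1 of 32 tested genes rose and 0 fell. With 0.495% of all genes called higher, single calls say nothing of the iron and heme list or the homing list. Ccr2 was at 11, 5.65 and 6.66 CPM without ICH and 22.4, 22.5 and 21 CPM with it (1.49 ± 0.21, adjusted p = 0.0167). Ccr2 lost its call without ND 2 (adjusted p = 0.0586), ND 3 (adjusted p = 0.122) and ND ICH 3 (adjusted p = 0.055).

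The most abundant granule gene, Mpo (myeloperoxidase), did not pass the test. Its values were 2006, 1317 and 1122 CPM in the ND libraries and 3064, 2562 and 1990 CPM in the ND ICH libraries, so that the groups overlapped by 1 library (log2 fold change 0.80 ± 0.23, adjusted p = 0.114). Prtn3 (proteinase 3) overlapped as well, with 104, 58.6 and 50.9 against 144, 98.6 and 140 CPM (adjusted p = 0.11). The transcription factor genes of the lineage had small differences that did not pass, with log2 fold changes of 0.14 for Spi1, 0.12 for Cebpa, 0.09 for Gfi1 and 0.23 for Irf8. Markers of mature cells were apart from the granule list: of 7 tested mature neutrophil markers 1 rose (Hp, haptoglobin, from 6.37, 3.35 and 3.43 to 13.1, 10.7 and 12.6 CPM), and their summed CPM was 313 to 406 without ICH and 295 to 331 with it. Ltf was at 6.02, 8.55 and 21.5 CPM without ICH and at 10.5, 9.14 and 6.53 CPM with it, and the groups overlapped.

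**Figure D2:**
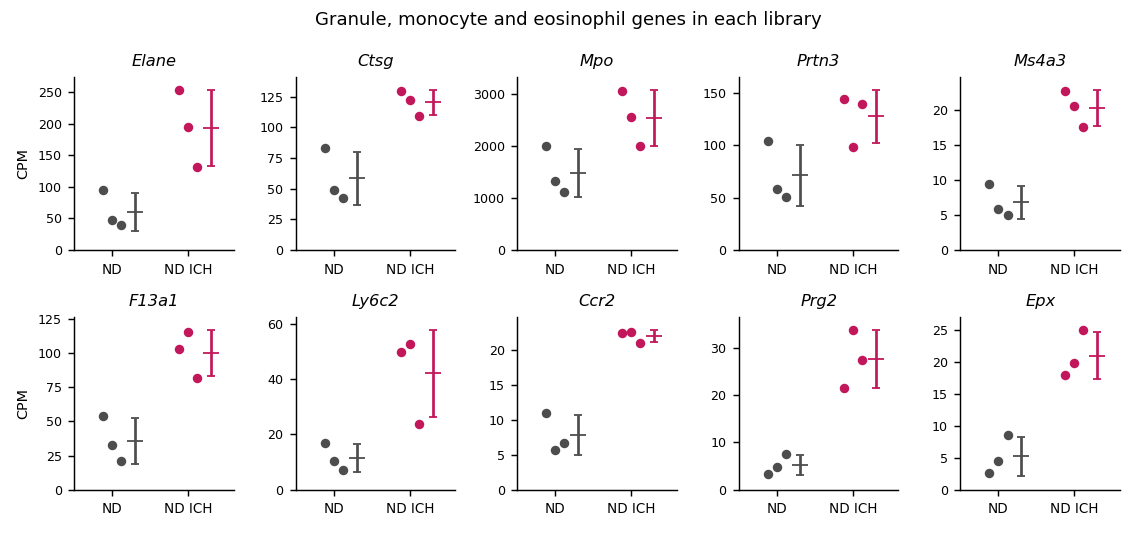
CPM (y axis, from 0) of granule, monocyte and eosinophil genes in the 3 ND and 3 ND ICH libraries; each point is a library, and the bar beside the points is the mean with its SD. Elane lies between 38.8 and 95 CPM in ND and between 132 and 253 CPM in ND ICH, while the points of Mpo overlap.

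These 6 calls rested on few libraries. Without ND 2 or without ND 3 none of the 33 granule and monocyte genes was called, against 11 without ND 1; without ND ICH 1, 2 or 3 the number was 1, 2 and 2. It was 6 under each of the 4 scalings, 4 in edgeR's quasi-likelihood test of the recovered reads, 16 in DESeq2 and 0 in the fit of all 12 libraries. The median of the list lay between 0.46 and 0.76 whichever library was left out. ND 1 also held the most RNA of macrophage markers, with a summed CPM of 863 against 355 and 321 in ND 2 and ND 3 and 313 to 415 after ICH, and of hemoglobin genes (Hbb-bs at 80.3 CPM against 22.5 and 10.03); of 10 tested macrophage markers 0 were called by limma, edgeR or DESeq2 (3 were lower at an unadjusted p under 0.05), their median was -0.61, and it was -0.15 without ND 1. Itgam, given above, was higher in the ND ICH libraries, together with the granule genes, whereas the summed CPM of the 8 listed lineage markers of the sort overlapped (49.0 to 57.2 without ICH and 50.3 to 78.1 with it). The part of these cells in the granule genes was not tested.

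Eosinophil granule genes formed the second group. Prg2 (chr2:84980461-84983632, mm10), encoding major basic protein, rose from 3.43, 4.73 and 7.55 CPM to 21.5, 33.8 and 27.4 CPM, a 5.03-fold difference (log2 fold change 2.33 ± 0.26, adjusted p = 0.00667). Epx, encoding eosinophil peroxidase, rose from 2.59, 4.54 and 8.63 to 17.9, 19.9 and 25 CPM (2.03 ± 0.34, adjusted p = 0.0313). Both genes had no overlap between groups. No ND library was above 10 CPM for either, so both passed the filter only through the ND ICH libraries, where they are high. Their calls and lack of overlap are therefore no independent support. Both were the called members of the 8 tested genes of the basophil and mast cell list, whose summed CPM was 687 to 718 without ICH and 691 to 782 with it. The call for Prg2 was kept under each left-out library and was lost in the fit of all 12 libraries (adjusted p = 0.124). Epx lost its call without ND 2 (adjusted p = 0.136), without ND ICH 3 (adjusted p = 0.0895) and in that fit.

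Further protein-coding genes that rose at least 2-fold had varied roles. C3, the central complement component, went from 10.7, 7.89 and 7.93 to 35.2, 25.8 and 17.8 CPM (log2 fold change 1.48 ± 0.23, adjusted p = 0.0257). Gda (guanine deaminase) differed by 1.23, Mtus1 by 1.37, Chd7 (a chromatin remodeller) by 1.18, Rps6ka2 (a kinase of the ERK pathway) by 1.21, and Sele (E-selectin, an endothelial adhesion molecule) by 1.17 on the log2 scale. Sele was at 9.66, 6.57 and 5.77 CPM without ICH and 20.3, 16.4 and 14.2 CPM with it. These 6 genes lost their calls without ND 2 and without ND 3. Gda, Mtus1, Rps6ka2 and Sele had no ND library above 10 CPM and passed the filter only through the ND ICH libraries. The summed CPM of stroma and endothelium markers was 144 to 158 without ICH and 189 to 198 with it. The 2 tested genes of this list were higher without overlap between the groups, and neither was called. Below the main set, Cdh5 was at 0.280, 0.197 and 0.190 against 0.986, 0.896 and 1.321 CPM. Cxcl12, at no more than 1.69 CPM in any library, and Col1a1 were also higher in every ND ICH library than in any ND library. Kitl and Emcn had lower means after ICH, and their groups overlapped. The part of stroma and endothelium in the difference of Sele was not tested.

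The third group was made of genes that blood cells are not known to use. Ttn, which encodes the muscle protein titin, was at 4.83, 7.43 and 6.66 CPM in the ND libraries and at 29.5, 29.2 and 30.1 CPM in the ND ICH libraries. The log2 fold change was 2.16 ± 0.15 (adjusted p = 0.000459), and Ttn was called under every alternative tried. Neb, encoding the muscle protein nebulin, went from 2.73, 5.39 and 5.14 to 14.9, 13.8 and 13.4 CPM (1.61 ± 0.23, adjusted p = 0.0169), and lost its call without ND 3 (adjusted p = 0.0721) and without ND ICH 3 (adjusted p = 0.0583). They were the 2 genes of a list of 16 listed muscle, liver, neuron and other non-blood genes that passed the filter. No ND library was above 10 CPM for either, so both passed only through the ND ICH libraries. Their direction was thus fixed by the filter, and their calls are no independent support. The summed CPM of the whole list was 12.9 to 20.8 without ICH and 67.0 to 69.6 with it. Both are very long genes on chromosome 2 (Ttn at chr2:76703980-76982547 and Neb at chr2:52136647-52378474, mm10). These values moved with the number of listed genes with no read, given above, and the part of that difference was not tested.

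The fourth group held RNAs outside ordinary messenger RNA, and they are described here after their values were seen. The largest differences of the main set belonged to 10 predicted genes that carry the sequence of the mouse major satellite, the tandem repeat of pericentromeric heterochromatin. The first 102 bases of the 681-base transcript of Gm10718 (chr9:3023547-3025218, plus strand, mm10) are shown to make the repeat visible, with the 42 bases that all 10 genes share in capitals.
Gm10718: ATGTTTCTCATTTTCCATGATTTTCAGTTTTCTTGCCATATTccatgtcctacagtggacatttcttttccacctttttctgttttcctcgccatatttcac
Because the copies are nearly identical and lie in a repeat, a read cannot be placed with certainty in any of them, and their sum is the safer measure. The summed CPM of the 10 genes was 7.77, 138 and 7.49 in the ND libraries and 10429, 4684 and 10237 in the ND ICH libraries. Gm10718 itself was at 0.140, 0.657 and 0 CPM without ICH and at 140, 117 and 252 CPM with it (log2 fold change 7.81 ± 0.35, adjusted p = 3.48e-05). All 10 genes were called higher, and 9 or 10 of them were whichever library was left out. Except for Gm10800, they had no ND library above 10 CPM and passed the filter only through the ND ICH libraries. ND 2 was the ND library with the highest sum.

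Mitochondrial transfer RNA genes also rose: 14 of 22 tested were called higher, 0 lower, with a median log2 fold change of 1.03. Among the called genes, mt-Td, mt-Ts2, mt-Tt, mt-Tl2, mt-Ti and mt-Tr had no ND library above 10 CPM. They passed the filter only through the ND ICH libraries, so their calls are no independent support. Their summed CPM was 687, 520 and 575 without ICH and 922, 1601 and 895 with it, ND ICH 2 being the highest. mt-Td, the transfer RNA of aspartate, was at 6.16, 4.47 and 4.76 against 22.3, 53.4 and 29.7 CPM (log2 fold change 2.58 ± 0.28, adjusted p = 0.00623). With ND 2 or ND 3 left out, 1 of the 22 genes was called, and 8 to 14 were with another library left out. The mitochondrial messenger and ribosomal RNAs did not follow at this size: 0 of 13 mitochondrially encoded protein genes were called (median 0.22), and mt-Rnr2 had a log2 fold change of 0.12 (adjusted p = 0.844). The share of all reads in mitochondrial genes was 7.42% to 8.17% without ICH and 8.29% to 9.79% with it, a difference with p = 0.1 in the two-sided exact permutation test, the smallest that 3 against 3 libraries allow.

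Among the genes that fell, Nr4a1 (chr15:101254269-101274795, mm10) had the smallest adjusted p. It encodes an orphan nuclear receptor of the NR4A family, an immediate early gene product of myeloid cells and HSPCs. Nr4a1 was at 12.3, 15.1 and 14.8 CPM in the ND libraries and at 5.39, 6.03 and 5.29 CPM in the ND ICH libraries, which did not overlap. No ND ICH library was above 10 CPM, so Nr4a1 passed the filter only through the ND libraries, where it is high. The log2 fold change was -1.26 ± 0.14 (adjusted p = 0.00657), a 2.40-fold lower level. The call was kept under all 4 scalings and in both count tests and was lost without ND 2 (adjusted p = 0.0504) and without ND 3 (adjusted p = 0.0578). The other members of the family were below the main set: Nr4a2 was at 8.82, 9.01 and 9.14 CPM without ICH and 5.65, 5.19 and 5.14 CPM with it, and Nr4a3 was at 0.840, 1.97 and 1.78 against 2.50, 2.03 and 2.20 CPM.

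Of 34 tested immediate early genes, 5 fell and 0 rose, with a median log2 fold change of -0.47 and 34 of 34 means lower. The groups did not overlap for 19 of the 34 (55.9%, all lower), against 24.4% of all genes. Besides Nr4a1 the called members were Dusp2, a phosphatase that inactivates MAP kinases (44.0, 40.8 and 41.1 against 30.9, 27.2 and 30.9 CPM), Sik1, a salt-inducible kinase (50.4, 66.1 and 64.9 against 39.0, 34.3 and 41.3 CPM), Ier5 and Zfp36l1, which encodes a protein that destabilises messenger RNAs. Their log2 fold changes were -0.49, -0.65, -0.62 and -0.58. The AP-1 genes did not pass the test, with log2 fold changes of -0.50 for Jun (adjusted p = 0.0643), -0.57 for Fos (adjusted p = 0.0895) and -0.77 for Fosb (adjusted p = 0.135), and neither did Egr1 (-0.77, adjusted p = 0.0838). The 4 calls other than Nr4a1 were each lost in 1 or more of the other scalings, under which 1 to 3 of the 34 genes were called. Without ND 2 or without ND 3, 0 of the 34 were called. On the recovered reads edgeR called 1 of the 34 and DESeq2 8, all lower.

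**Figure D3:**
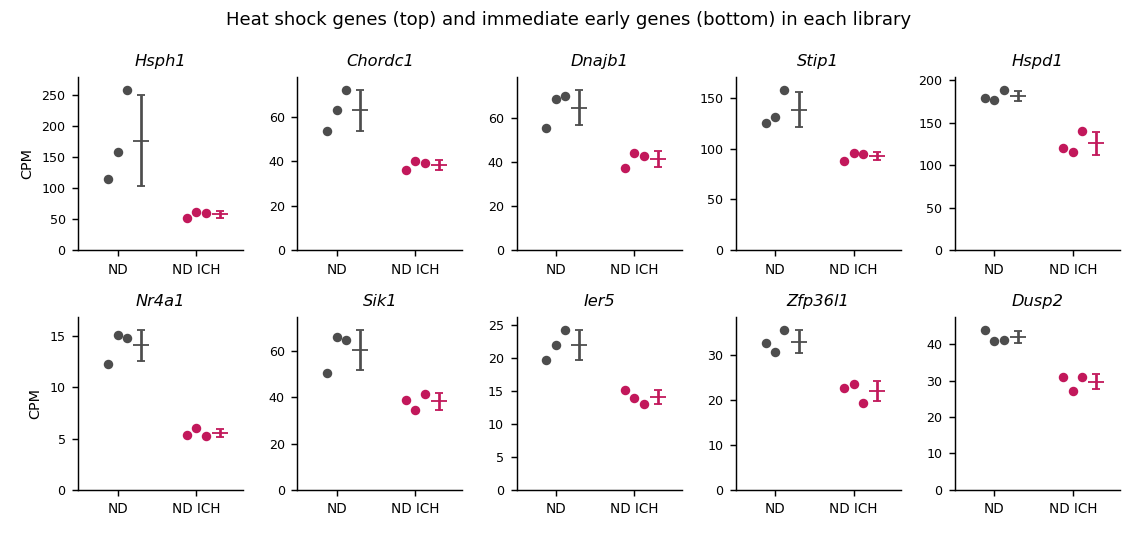
CPM (y axis, from 0) of heat shock genes (top) and immediate early genes (bottom) in the 3 ND and 3 ND ICH libraries; each point is a library, and the bar beside the points is the mean with its SD. Nr4a1 lies between 12.3 and 15.1 CPM in ND and between 5.29 and 6.03 CPM in ND ICH, and Hsph1 spreads from 114 to 258 CPM in ND against 51.5 to 60.7 CPM in ND ICH.

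Heat shock and chaperone genes formed the second group that fell. Of 36 tested, 6 fell and 0 rose, and the median was -0.27. The groups did not overlap for 22 genes (61.1%, all lower), against 24.4% of all genes. This share was not particular to lists with calls. In the list of growth factors and regulators of stem cells it was 60.7%, with 0 of 28 genes called. Hsph1 (chr5:149614287-149636376, mm10), encoding a nucleotide exchange factor of the HSP70 chaperones, was at 114, 158 and 258 CPM without ICH and 51.5, 60.7 and 59.6 CPM with it. The ND libraries varied more than 2-fold among themselves and stayed above all ND ICH libraries (log2 fold change -1.54 ± 0.24, adjusted p = 0.0292). Chordc1, an HSP90 co-chaperone gene, was at 53.6, 63.1 and 72.0 against 36.0, 40.01 and 39.0 CPM (-0.70 ± 0.11, adjusted p = 0.0294). Hspd1, encoding the mitochondrial chaperonin HSP60, was at 179, 176 and 188 against 120, 116 and 141 CPM (-0.53 ± 0.091, adjusted p = 0.0335). The other called members were Dnajb1, an HSP40 gene (-0.64), Stip1, which links HSP70 to HSP90 (-0.57), and Ahsa1, which stimulates the HSP90 ATPase (-0.53).

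The main cytosolic chaperones did not pass the test. Hspa8 had a log2 fold change of -0.50 (adjusted p = 0.0832), Hsp90aa1 of -0.49 (adjusted p = 0.0808), and Hsf1, the factor that drives heat shock transcription, of -0.45 (adjusted p = 0.0546). The inducible gene Hspa1a differed between libraries of the same group, at 8.82, 60.02 and 164 CPM without ICH and 7.30, 58.0 and 39.3 CPM with it (adjusted p = 0.678). Its neighbour Hspa1b, a near-identical copy that can share reads with it, was at 9.59, 72.4 and 193 against 8.41, 61.7 and 41.9 CPM. In both genes the library numbered 1 was the lowest of its group. The call of Hsph1 was kept under all 4 scalings and lost without ND 2 (adjusted p = 0.119), without ND ICH 1 (adjusted p = 0.0535) and without ND ICH 3 (adjusted p = 0.0696). The other 5 calls were each lost in 1 or more scalings, under which 1 to 6 genes of the list were called. The number called was 0 without ND 2 and 1 without ND 3, ND ICH 1 or ND ICH 3. It was 4 without ND 1 and 9 without ND ICH 2. On the recovered reads edgeR called 1 of the 36 and DESeq2 11, all lower.

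Heat shock factors bind DNA at repeats of nGAAn units in alternating orientation. The RefSeq promoter windows (GRCm38.p6, 250 bases before to 50 after each start) were searched on both strands for GAANNTTCNNGAA, 3 such units, and overlapping matches were kept. The motif was in 198 of 32851 windows (0.603%), and in those of 5 of the 29 heat shock list genes with a window. Of the 6 heat shock genes that fell 3 held it (Chordc1, Hspd1 and Hsph1), and of the 23 others with a window 2 did (Dnajb6 and Hspe1). The 3 matches are shown because they lie in genes of this group that fell, with the motif in capitals. They are at chr9:18292260-18292288 (plus strand, from base -4 to 19 of the start), chr1:55088019-55088116 (minus strand, from base -144 to -127) and chr5:149636285-149636303 (minus strand, from base 16 to 28 of the nearer of 2 listed starts).
Chordc1: ccgGAACGTTCGGGAAAATTCCTGAAgca
Hspd1: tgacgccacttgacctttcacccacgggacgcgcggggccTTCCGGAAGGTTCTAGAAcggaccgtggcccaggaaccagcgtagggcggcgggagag
Hsph1: agaTTCTGGAAAGTTCtcc
The Chordc1 window held 3 overlapping matches and the Hspd1 window 2. A match is a description of the letters and no evidence that a factor was bound there. None of the 32 other genes with a window that fell, nor of the 18 with a window that rose, held it.

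Genes of U1 small nuclear RNA, described after their values were seen, made up 11 of the 68 that fell. U1 is the RNA part of the spliceosomal particle that recognises the start of introns, and it pairs with that site through its 5′ end. The first 30 of 164 bases of Rnu1a1 (chr11:87422867-87423030, plus strand, mm10) are shown because many nearly identical genes share them, with the pairing end in capitals.
Rnu1a1: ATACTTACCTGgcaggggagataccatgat
Of 17 tested U1 genes 11 fell and 0 rose. The groups did not overlap for 16 of the 17, all lower, against 24.4% of all genes. Of these 17, 11 have the length of Rnu1a1 and 7 its exact sequence, Rnu1a1 included. Among the others that fell, Gm22513 (T60C) and Gm24305 (A26G) differ from it by 1 base (the base of Rnu1a1 is given first and positions are counted from 1 at its 5′ end). A read from one copy fits others, so the sum is the safer measure: it was 10220, 9474 and 10543 CPM without ICH and 5103, 2025 and 2916 CPM with it. Rnu1a1 was at 460, 425 and 297 against 196, 88.2 and 122 CPM (log2 fold change -1.59 ± 0.27, adjusted p = 0.0331).

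The decrease covered other small nuclear and nucleolar RNAs in part. Of 9 tested U2 genes 3 fell, with sums of 2204, 2413 and 2414 against 1412, 532 and 1311 CPM, and of 46 snoRNA genes 5 fell, with a median of -0.45. Snora64 was at 67.4, 81.8 and 73.0 against 30.8, 31.4 and 18.6 CPM (-1.48 ± 0.18, adjusted p = 0.0123), and Vaultrc5, a vault RNA, had a log2 fold change of -1.32 (adjusted p = 0.0123). The small RNA genes together took 16.7% to 17.5% of reads without ICH and 14.4% to 16.05% with it (p = 0.1, two-sided exact permutation test). ND ICH 2 had the lowest U1 and U2 sums. The number of U1 genes called was 0 without ND 3, 1 without ND ICH 3, 3 without ND 1 or ND 2, 13 without ND ICH 2 and 17 without ND ICH 1, and 9 or 10 under the 4 scalings. Snora64 and Vaultrc5 lost their calls without ND 2 and without ND 3.

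Smaller numbers of genes fell in other lists. In the DNA replication and S phase list, 3 of 66 tested genes fell and 0 rose (E2f7, a repressor of E2F targets, at -0.55; Brca1, a DNA repair gene, at -0.43; and Tyms, thymidylate synthase, at -0.41 on the log2 scale). The median was -0.24, against -0.08 for all genes. Of the 66 means 63 were lower, against 6499 of all 9696. The groups did not overlap for 41 genes (62.1%, all lower), against 24.4% of all genes. With TMM scaling on the main set the median of the list was -0.16 and that of all genes 0.00. The replication genes Pcna (-0.39, adjusted p = 0.0804), Mcm2 (-0.39, adjusted p = 0.142) and Uhrf1 (-0.55, adjusted p = 0.0822) did not pass. In the G2/M and mitosis list limma, edgeR and DESeq2 each called 0 of 83, the median was 0.00, and limma's unadjusted p was under 0.05 for 2 genes that were higher and 9 that were lower. Under 3 of the 4 scalings 0 of the S phase genes were called, and 2 under the other. The number called was also 0 in edgeR's test and without any library but ND ICH 2, without which it was 5. DESeq2 called 5 of the 66, all lower.

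Of 17 MHC genes 2 fell, H2-Q4 (104, 96.2 and 117 against 75.1, 75.6 and 72.4 CPM) and H2-Q6 (145, 141 and 183 against 98.3, 107 and 86.4 CPM), with log2 fold changes of -0.50 and -0.68. The H2-Q genes are near-identical neighbours between which reads may have been split. H2-K1, a classical class I gene, had a log2 fold change of -0.32 (adjusted p = 0.0963), and B2m, the shared light chain, of -0.01. Single genes fell in 2 immune lists, 1 of 60 interferon response genes (Helz2, at -0.63) and 1 of 40 toll-like receptor and NF-kB genes (Nfkbid, an atypical IkB, at -0.58). With 0.701% of all genes called lower, these counts say nothing of the lists, and both were 0 under 3 of the 4 scalings. Of 36 genes of the unfolded protein response 2 fell: Hspa5, encoding the ER chaperone BiP, from 402, 379 and 402 to 271, 270 and 309 CPM, and Syvn1, a ubiquitin ligase of ER-associated degradation, at -0.57. Outside these lists Banp, which encodes a nuclear matrix and CG-rich DNA binding protein, fell from 54.6, 63.6 and 82.2 to 28.5, 34.0 and 29.7 CPM (-1.09 ± 0.14, adjusted p = 0.0139). Banp kept its call under all 4 scalings and lost it without ND 2 (adjusted p = 0.0609) and ND ICH 3 (adjusted p = 0.051), whereas the other 6 calls were each lost in 1 or more of the scalings.

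**Figure D4:**
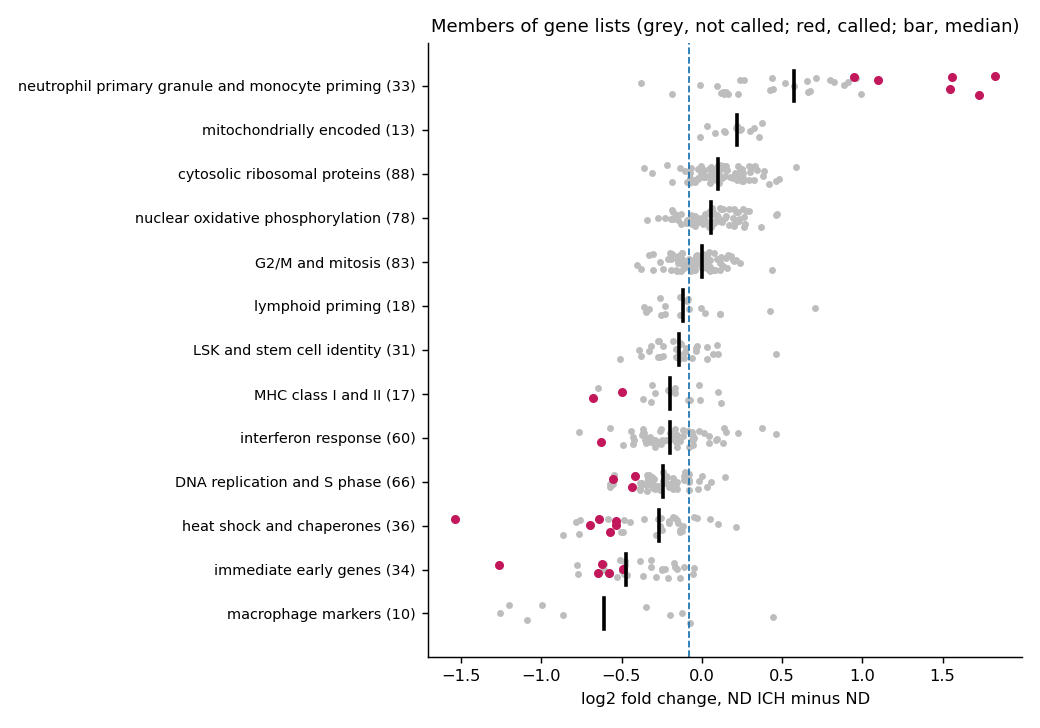
Log2 fold change, ND ICH minus ND (x axis), of the tested members of 13 gene lists (rows); each point is a gene, red where called, the bar is the median of the list and the dashed line the median of all tested genes (-0.08). The granule and monocyte list lies to the right with a median of 0.58, and the immediate early genes lie to the left with a median of -0.47 and no member above 0.

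Several programs had no called gene. By limma, 0 genes were called among 31 LSK and stem cell identity genes (median -0.14), 18 lymphoid priming genes (-0.11), 13 mitochondrially encoded genes, 88 cytosolic ribosomal protein genes (0.10), 78 nuclear oxidative phosphorylation genes (0.06) and 49 chromatin and clonal hematopoiesis regulators (-0.15). At an unadjusted p under 0.05 the lists had 1, 2, 4, 3, 1 and 0 genes higher and 7, 4, 0, 3, 3 and 20 genes lower, in that order. edgeR called 0 genes of each list, and DESeq2 called 1, 1, 2, 1, 0 and 0, all higher. Genes lower without overlap between the groups made up 22.6%, 22.2%, 0%, 3.41%, 6.41% and 51.0% of these lists, in the same order. The share over all genes was 24.4%. The summed CPM of the LSK list was 3548 to 3962 without ICH and 3423 to 3474 with it. The 32 protein-coding genes that rose had a median exon GC content of 45.7% and the 45 that fell of 54.9%. For all 8723 tested it was 49.2%. Across the tested protein-coding genes, log2 fold change and GC content had a Spearman correlation of -0.34. The part of GC content in the calls was not tested.

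The matching difference in mice fed the high-salt diet (HSD ICH minus HSD, 3 libraries each) came from other libraries. The study returned mice to the normal diet after ICH, so the HSD ICH mice were off high salt when sampled. Hemorrhage and salt withdrawal cannot be told apart in that difference. The difference between the ICH effects of the diet groups was tested for each of the 9696 genes. No gene was called (0%; smallest adjusted p = 0.812 by limma), and 466 had an unadjusted p under 0.05. edgeR and DESeq2 on the recovered reads called 0 as well, with 481 and 504 genes at an unadjusted p under 0.05. The log2 fold changes on ND and HSD were 1.73 and 2.50 for Elane, 2.33 and 1.42 for Prg2, 2.16 and 1.41 for Ttn, -1.26 and -0.57 for Nr4a1, -1.54 and -1.19 for Hsph1, and -0.48 and 0.16 for Hspa5. Of the 116 called genes 113 had the same sign on HSD, all 48 that rose and 65 of the 68 that fell. The share of all 9696 genes with the same sign was not counted, so this agreement cannot be read as particular to the called genes. The sets of libraries with and without ICH were divided in the same way in both diet groups. Listed genes with no read numbered 1543, 1755 and 1728 in the HSD libraries and 14, 29 and 9 in the HSD ICH libraries.

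**Figure D5:**
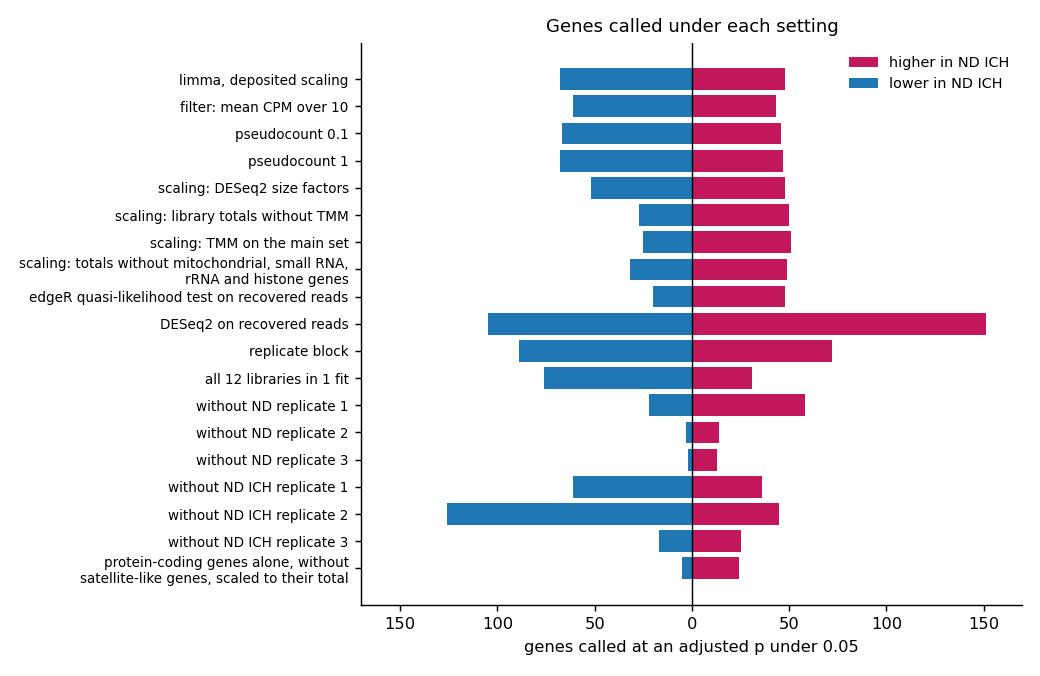
Number of genes called at an adjusted p under 0.05 (x axis; higher to the right, lower to the left) for the comparison as reported and its alternatives (rows), leaving out the 2 wider filters. Without ND 2 or ND 3 the counts drop to 14 and 13 higher and to 3 and 2 lower, and the number of genes that fell varies more between scalings (25 to 52) than the number that rose (48 to 51).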

How the data were processed

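RNA was taken from Lin-CD127-c-kit+Sca-1+ cells of femur and tibia and sequenced with a stranded SMART-Seq kit. Alignment to mm10 (Rsubread) and counting (featureCounts) were done by the authors, who deposited a CPM table for each library, scaled to library sizes adjusted by TMM in edgeR 3.24.3. In the 6 libraries compared, 100% of CPM values were whole numbers of reads times a library constant (tolerance 0.01 read), and in the HSD libraries at least 99.99%, so reads were recovered for the count tests. Genes above 10 CPM in at least 3 of the 6 libraries were fitted on log2(CPM + 0.5) with limma 3.58.1 (R 4.3.3), with a variance trend and Benjamini-Hochberg adjustment over 9696 genes. For 3 against 3 library measures, 16 in all, a two-sided exact permutation test was used. The scripts were tested on simulated data.

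Named genes were, in each direction, up to 15 of smallest adjusted p with at least 2-fold change and no overlap between groups (leaving out Gm and Rik clones, predicted genes, pseudogenes, small RNAs, histone and immunoglobulin genes), up to 5 called members of each list, the sort and Nr4a genes and the 5 genes of highest CPM; other genes are said to be chosen after their values were seen, and values of uncalled list members are given as context. The members and lists were chosen with earlier results of these data known. Alternatives were other filters, pseudocounts (0.1 and 1), 4 scalings, edgeR 4.0.16 and DESeq2 1.42.0 on recovered reads, a replicate block, all 12 libraries in 1 fit, each library left out, and, chosen after the data were seen, protein-coding genes alone without the satellite-like genes.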

Additional observations from a re-analysis of the deposited data

How the results depend on the processing

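The 48 genes higher and 68 lower changed most with the filter: 2619 and 626 were called with at least 10 reads in at least 3 libraries (19387 genes tested; 128 and 573 of the main set), and 3288 and 682 with no filter. The count of genes lower fell to 27 with library totals without TMM, 25 with TMM on the main set and 32 with totals without mitochondrial, small RNA, rRNA and histone genes. edgeR's quasi-likelihood test gave 20 lower, and DESeq2 gave 151 higher and 105 lower. One fit of all 12 libraries gave 31 higher, and protein-coding genes alone 24 higher and 5 lower. The cause of these differences was not tested. With each library left out in turn, 13 to 58 genes were higher and 2 to 126 lower: without ND 2, 14 and 3; without ND 3, 13 and 2; without ND ICH 3, 25 and 17; lower without ND 1, 22, and without ND ICH 2, 126.

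A replicate block gave 72 higher and 89 lower, and called 14 of the 33 granule and monocyte genes against 6 without it. Across the main set, same-numbered libraries did not deviate together (correlations 0.07, -0.01 and 0.02). With 3 libraries per group, these correlations cannot exclude that the numbers pair the libraries. The difference between diets had 0 called genes in each setting run, edgeR and DESeq2 included. None of the called genes followed through these alternatives changed direction. Depth was similar between the groups and limits mainly genes near 10 CPM, 1 read being worth 0.0597 to 0.0734 CPM.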
